A study of Mus musculus with 19 samples.

Results

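The genes described here encode proteins that read the poly(A) tail and the 3′ UTR of mRNAs: the cytoplasmic poly(A) binding proteins Pabpc1 and Pabpc4, the PABP-interacting proteins Paip1 and Paip2, the cytoplasmic polyadenylation element binding proteins Cpeb1, Cpeb2, Cpeb3 and Cpeb4, and the Pumilio protein Pum2. They are 9 of the 20436 genes in the count tables and were taken by symbol. The group was selected on the DHPG response of these same libraries, and Pabpc1 was chosen by its opposite RNA and RPF log2 fold changes, so the responses of the 9 genes to DHPG are described without a test. All 9 passed the filter on low counts in both assays. Neither assay measures protein.

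Acute hippocampal slices of wild-type male mice aged 28 to 42 days were incubated for 5 min with vehicle (basal) or with 100 µM DHPG, an agonist of group I metabotropic glutamate receptors that induces a protein synthesis-dependent form of long-term depression. All slices were then placed in cycloheximide at 100 µg/ml, which arrests elongating ribosomes, and each replicate pooled slices of several mice with area CA3 left in place. RNA-seq measured mRNA levels in 4 basal and 5 DHPG libraries, and ribosome profiling, which sequences the pieces of mRNA shielded from RNase by a ribosome (ribosome-protected fragments, RPFs), covered 5 basal and 5 DHPG libraries. The DHPG RNA library of replicate 5 had no basal partner, so RNA was compared in 4 replicate pairs and RPF in 5.

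PABP coats poly(A) tails and contacts the initiation factor eIF4G at the cap, which favours initiation and protects the tail. PAIP1 is a stimulatory partner of PABP, and PAIP2 is an inhibitor that displaces PABP from poly(A). CPEB proteins bind U-rich elements in 3′ UTRs and can shorten or lengthen the tail through the deadenylases and poly(A) polymerases they recruit, and in neurons they are known for translation of dendritic mRNAs after synaptic stimulation. Pumilio proteins bind 3′ UTRs and repress their targets, in part through the CCR4-NOT deadenylase. The Pabpc1 mRNA is itself a known target of PABP, through an A-rich stretch of its 5′ UTR, and belongs to the mRNAs with a 5′ terminal oligopyrimidine (TOP) motif.

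The elements that these proteins read were looked up in the members' own mRNAs (GENCODE annotation, mm10, sense strand). The longest uninterrupted run of A in the 5′ UTR had 8 bases in Pabpc1, 14 in Pabpc4 and 9 in Cpeb3, and at most 5 in the other members with an annotated 5′ UTR. The transcript used for Paip1 has a 5′ UTR of 0 nt, so none was searched. A run of at least 8 was present in 1.67% of 11385 annotated 5′ UTRs of the genes measured. The windows of the PABP genes are shown, with the run in capitals, because PABP is known to bind such a stretch in its own mRNA. Pabpc1 lies on chromosome 15 from 36595661 to 36609668 and Pabpc4 on chromosome 4 from 123262351 to 123298925.
Pabpc1 5′ UTR, chr15:36608874-36608903, minus strand: ttaaaaaatccAAAAAAAAtctaaaaaatc
Pabpc4 5′ UTR, chr4:123282884-123282913, plus strand: aaaaccttAAAAAAAAAAAAAAgaaaagaa

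The cytoplasmic polyadenylation element (CPE) was searched as TTTTAT and as TTTTAAT, and the Pumilio element as TGTANATA, in annotated 3′ UTRs; the patterns can share bases with neighbouring matches. TTTTAT occurred in 8 of the 9 members, against 57.8% of 11925 genes, and TTTTAAT in 5 of 9, against 32.7%. The Pumilio element occurred in 5 of 9 (Paip1, Cpeb1, Cpeb2, Cpeb3 and Pum2), against 28% of genes. The 3′ UTRs of the members ran from 276 nt in Paip1 to 4102 nt in Cpeb4, around a median of 1192 nt over all genes, and a longer UTR offers more positions. Per kb, the CPE patterns together numbered 6.35 in Cpeb2 (20 and 4 matches), 4.14 in Cpeb4 (11 and 6), 3.04 in Cpeb1 (2 of each) and 1.68 in Cpeb3 (6 and 0), where TTTTAT had 1.0 and TTTTAAT 0.319 matches per kb over all genes. Outside the CPEB genes they numbered 3.62 in Paip1, 2.82 in Pum2 (5 and 3), 2.35 in Pabpc4, 2.28 in Pabpc1 and 1.07 in Paip2. All of these but Pum2 rest on 1 match. A match is a description of the letters, not of binding. The CPE matches of the PABP genes and of Paip1 are given first, with the element in capitals, followed by every Pumilio match, which includes 2 in the mRNA of Pum2 itself.
Pabpc1 CPE, chr15:36595837-36595866, minus strand: aacaaattaatgTTTTATagaccctgggaa
Pabpc4 CPE, chr4:123298832-123298861, plus strand: atttgatgccagTTTTATgttacaatcttg
Paip1 CPE, chr13:119457302-119457331, plus strand: tatatataatagTTTTATtatgtacagtta
Paip1 Pumilio element, chr13:119457285-119457314, plus strand: aacttaaaatgTGTATATAtatataatagt
Cpeb1 Pumilio element, chr7:81347543-81347572, minus strand: tgagcagctgcTGTATATAgttttaaatgg
Cpeb2 Pumilio element, chr5:43286403-43286432, plus strand: tgttttcagtgTGTACATAaactaaaaatt
Cpeb3 Pumilio element, chr19:37022117-37022146, minus strand: cccttttgtttTGTAAATAaatgtgccccc
Pum2 Pumilio element 1, chr12:8750154-8750183, plus strand: gtttatagagaTGTATATAgaattatagtt
Pum2 Pumilio element 2, chr12:8750407-8750436, plus strand: atgtacagaatTGTATATActtataattgt

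Library totals ran from 4870813 to 7793244 counts in RNA and from 5692064 to 22092434 in RPF, and log2 CPM (counts scaled to library size) of libraries of one assay correlated at 0.954 or more in RNA and 0.986 or more in RPF. None of the 10 markers of hippocampal excitatory neurons was at 0 in any group, and their summed RNA level ran from 3664 to 6077 CPM. In bulk slices, fewer cells of a type and less RNA per cell cannot be told apart. The lowest count of a member in any library was 39, for Pabpc4 RPF, and each other member had at least 148 counts in every library of either assay.

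**Figure D1:**
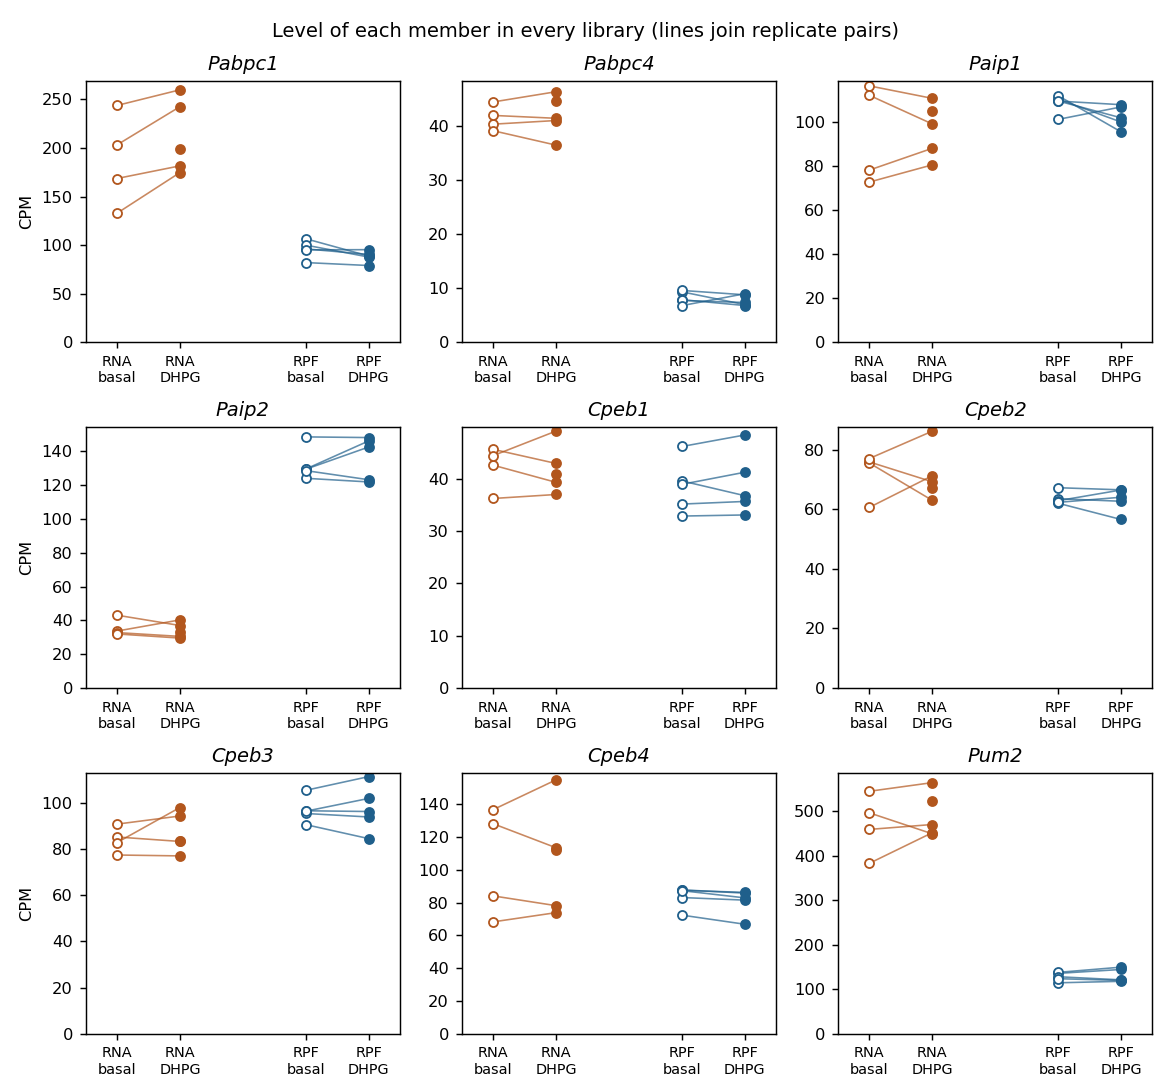
Level of each member in CPM (vertical axis, starting at 0) in every library, with RNA in brown and RPF in blue, basal as open and DHPG as filled circles, and lines between libraries of the same replicate number. The basal and DHPG points overlap in every panel, and the DHPG end is the higher one on all 4 lines of Pabpc1 RNA and the lower or level one on its 5 RPF lines.

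After DHPG, Pabpc1 RNA was higher and Pabpc1 RPF lower. In RNA, Pabpc1 stood at 244, 169, 133 and 203 CPM in basal replicates 1 to 4, and at 260, 182, 175, 243 and 199 CPM in DHPG replicates 1 to 5. In RPF it stood at 106, 96.0, 82.0, 99.9 and 95.1 CPM in basal replicates 1 to 5 and at 88.7, 90.3, 78.9, 87.6 and 95.3 CPM after DHPG. The groups overlapped in both assays, and the shift was visible within replicate numbers: replicates 1 and 4 had high and replicates 2 and 3 low Pabpc1 RNA under either treatment.

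In log2 CPM, the RNA of Pabpc1 was higher after DHPG by 0.09, 0.11, 0.40 and 0.26 in pairs 1 to 4, that is in 4 of 4 pairs. The RPF differed by -0.26, -0.09, -0.05, -0.19 and 0.0028 in pairs 1 to 5, lower in 4 of 5 pairs and level in pair 5. With scaling by library size alone, pair 5 was at -0.0093 and the RPF was lower in 5 of 5 pairs. The difference of RPF and RNA was -0.36, -0.20, -0.45 and -0.44 in the 4 pairs with all libraries. The RNA shift was smallest and the RPF shift largest in replicate 1, and the RNA shift was largest in replicate 3. RNA higher in every pair was found in 8.65% of the 12691 genes measured in both assays, and this together with RPF lower in at least 4 of 5 pairs in 1.34% of them.

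In the fit over all genes with replicate number as a block, the log2 fold change of Pabpc1 was 0.21 ± 0.07 (SE) in RNA, a 1.16-fold difference at percentile 92.5 of all genes. In RPF it was -0.10 ± 0.04 (SE), a fold of 0.930 at percentile 9.96. The RPF to RNA ratio differed by -0.32 ± 0.08 (SE), at percentile 3.07. Leaving out each replicate number in turn gave 0.15 to 0.25 in RNA, -0.13 to -0.08 in RPF and -0.36 to -0.28 in the ratio. Over the RNA libraries in pairs, replicate number took 84.2% of the variance of Pabpc1 log2 CPM and treatment 11.8%, and over the RPF libraries 61.8% and 23.1%, where the medians of all genes were 75.7% and 3.69% in RNA and 73.3% and 3.71% in RPF.

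As a background for these values, 1 of 12935 genes passed an adjusted p of 0.01 in RNA (0.00773%), and 8.02% had an unadjusted p under 0.05 in edgeR. The RPF threshold, an adjusted p of 0.05, was met by 29 of 13208 genes (0.22%), and 10.8% had an unadjusted p under 0.05. For the ratio, 0 of 12691 genes passed in edgeR (0%), against 6.69% at an unadjusted p under 0.05, and limma also called 0. None of the 9 members was among the genes past these thresholds. Reads shared with near-identical copies are uncertain for Pabpc1: its intronless relatives Pabpc2 and Pabpc6 had 0 counts in every RNA library and at most 12 and 1 counts in an RPF library, and the deposited reads were those that mapped uniquely.

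**Figure D2:**
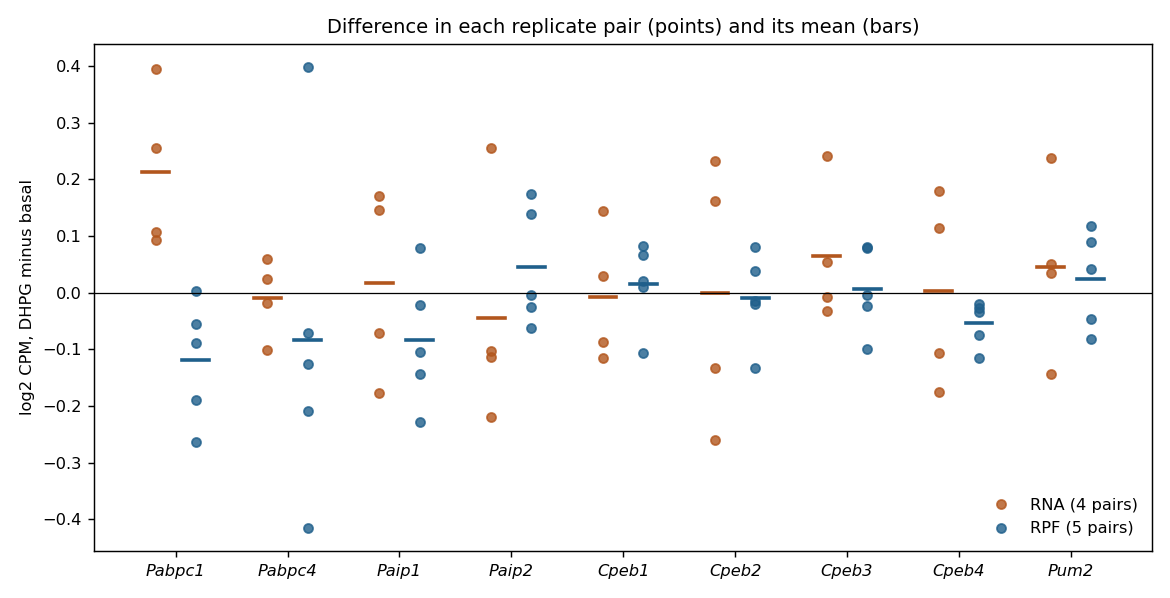
Difference in log2 CPM, DHPG minus basal, in each replicate pair for the 9 members, with RNA in brown (4 pairs) and RPF in blue (5 pairs); short bars mark the mean over pairs. The 4 Pabpc1 RNA points lie between 0.09 and 0.40, its 5 RPF points between -0.26 and 0.0028, and the 5 Cpeb4 RPF points all lie below 0.

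Most markers of thalamus and of oligodendrocytes had higher values after DHPG in the same libraries, though not in every RPF pair. The marker lists were chosen with earlier results of these data known, so their counts, calls and adjusted p are a description. All 8 thalamus markers tested in RNA were higher after DHPG (median log2 fold change 0.60, 1 called) and all 10 tested in RPF were too (median 0.43, 6 called), with summed levels of 131 to 176 CPM in basal and 166 to 229 CPM in DHPG RNA libraries, and of 183 to 232 and 191 to 307 CPM in RPF. Their median over the list ran from 0.25 to 0.69 in the RNA pairs and from -0.35 to 0.86 in the RPF pairs. The called genes with the smallest p were Prkcd in RNA (0.70 ± 0.11 SE, adjusted p = 0.00444) and Zic1 (0.66 ± 0.12), Slc17a6 (0.23 ± 0.05), Shox2 (1.32 ± 0.28), Prkcd (0.43 ± 0.09) and Tcf7l2 (0.31 ± 0.07) in RPF. Of the 6 oligodendrocyte markers, 6 were higher in RNA (median 0.16, 0 called, 4 with an unadjusted p under 0.05), with a list median between 0.10 and 0.22 over the 4 pairs. In RPF 5 of 6 were higher, Mag alone was called (0.16 ± 0.04, adjusted p = 0.0337), and the list median ran from -0.11 to 0.22 over the 5 pairs. Their summed RNA level ran from 2462 to 5282 CPM in basal and from 2812 to 6034 CPM in DHPG libraries, and none was at 0. The part of these tissue markers in the Pabpc1 shift was not tested.

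The other marker lists gave 1 call. The excitatory neuron markers were higher in 8 of 10 genes in RNA (median 0.09) and in 5 of 10 in RPF, with none called. Interneuron markers were lower in 5 of 6 genes in RNA, and Sst, which encodes somatostatin, was called higher in RPF (0.20 ± 0.03 SE, adjusted p = 0.00066). Astrocyte markers were higher in 4 of 6 genes in RNA and 6 of 6 in RPF, microglia markers in 4 of 6 and 6 of 6, and endothelial markers in 2 of 6 and 0 of 6, with none called.

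Pabpc4, the inducible relative of Pabpc1, had no common direction in RNA. Its RNA was at 40.4, 39.1, 42.0 and 44.5 CPM in basal and at 41.0, 36.5, 41.4, 46.4 and 44.6 CPM in DHPG libraries. Its RPF was at 9.31, 7.86, 7.72, 9.57 and 6.76 CPM in basal and at 6.94, 6.78, 7.34, 8.76 and 8.96 CPM after DHPG. Both groups overlapped in each assay. RNA was higher in 2 of 4 pairs, with a log2 fold change of -0.0031 ± 0.085 (SE). RPF was lower in pairs 1 to 4 and higher in pair 5 (from -0.42 to 0.40 over pairs), with -0.06 ± 0.10 (SE), on counts of 39 to 170 a library. The RPF to RNA ratio of Pabpc4 differed by -0.06 ± 0.13 (SE), and was lower in 4 of 4 pairs as in Pabpc1, at -0.44, -0.11, -0.05 and -0.19.

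Paip1, the stimulatory partner, had higher RPF in 1 of 5 pairs. Its RPF stood at 110, 111, 101, 112 and 110 CPM in basal and at 108, 100, 107, 95.7 and 102 CPM in DHPG libraries, with a log2 fold change of -0.08 ± 0.04 (SE) at percentile 15.1 of all genes. Its RNA, from 72.9 to 117 CPM in basal and 80.7 to 111 CPM in DHPG libraries, was higher in 2 of 4 pairs (0.0060 ± 0.078 SE). Treatment took 34.3% of the variance of Paip1 RPF and replicate number 12.2%, whereas replicate number took the larger share in the other 8 members.

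The RPF of Paip2, the inhibitor of PABP, stood at 129, 149, 130, 124 and 129 CPM in basal and at 143, 148, 146, 122 and 123 CPM in DHPG libraries, higher in pairs 1 and 3 and lower in the other 3 (log2 fold change 0.05 ± 0.04 SE). Its RNA, at 33.7, 32.8, 31.9 and 43.1 CPM in basal and 40.3, 30.5, 29.5, 37.0 and 33.3 CPM in DHPG libraries, was lower in 3 of 4 pairs (-0.04 ± 0.10 SE). The groups overlapped in both assays.

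Among the CPEB genes, Cpeb4 had lower RPF after DHPG in 5 of 5 pairs, at -0.12, -0.03, -0.03, -0.02 and -0.07 on the log2 scale, where RPF lower in every pair was found in 4.69% of all genes measured in both assays. Cpeb4 RPF stood at 72.3, 83.1, 87.8, 87.4 and 87.3 CPM in basal and at 66.8, 81.5, 85.7, 86.2 and 82.9 CPM in DHPG libraries, and the groups overlapped. The log2 fold change was -0.05 ± 0.04 (SE), at percentile 25.2. Its RNA had no common direction (0.0062 ± 0.078 SE, higher in 2 of 4 pairs), at 128, 84.1, 68.2 and 137 CPM in basal and 113, 78.1, 73.9, 155 and 112 CPM after DHPG.

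The RNA of Cpeb4 therefore ranged 2.27-fold over libraries, the widest of the 9 members, and its RPF only 1.31-fold. Replicate number took 97.0% of the variance of Cpeb4 RNA. Pabpc1 was similar, with 1.96-fold in RNA and 1.35-fold in RPF, and Paip1 had 1.60-fold and 1.17-fold. The median gene ranged 1.66-fold in RNA and 1.39-fold in RPF. The basal RNA of replicates 1 and 4 was above that of replicates 2 and 3 for Pabpc1, Paip1, Paip2, Cpeb2, Cpeb4 and Pum2, and not for Pabpc4, Cpeb1 and Cpeb3. In Pabpc1 the basal RPF of replicates 1 to 4 followed the same order as the RNA, and in Cpeb4 it did not, with the lowest RPF in replicate 1.

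Cpeb1, the founding member that recruits the cytoplasmic polyadenylation machinery, differed by 0.0001 ± 0.085 (SE) in RNA and 0.0073 ± 0.049 in RPF, with levels of 36.3 to 45.7 CPM in basal RNA, 37.0 to 49.2 CPM in DHPG RNA, 32.9 to 46.2 CPM in basal RPF and 33.1 to 48.4 CPM in DHPG RPF. Cpeb2 differed by 0.0072 ± 0.084 in RNA and -0.0029 ± 0.041 in RPF, although single RNA pairs ran from -0.26 to 0.23. Cpeb3, whose protein is known from long-term memory in mice, differed by 0.07 ± 0.08 in RNA and 0.01 ± 0.04 in RPF. Cpeb2 spanned 60.7 to 77.1 CPM in basal and 63.1 to 86.3 CPM in DHPG RNA libraries, and 62.1 to 67.3 and 56.6 to 66.6 CPM in RPF. Cpeb3 spanned 77.5 to 90.9 and 77.1 to 98.1 CPM in RNA, and 90.6 to 106 and 84.6 to 111 CPM in RPF. The standard errors of these genes were of the order of 0.08 in RNA and 0.04 in RPF. At this depth and number of replicates, shifts of that size were not detectable, and shifts well above it could also pass no threshold. The values therefore do not show that these genes were unchanged.

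Pum2, a repressor found in dendritic RNA granules, had the highest RNA of the 9 members in CPM, at 497, 459, 383 and 545 CPM in basal and 450, 471, 452, 565 and 524 CPM in DHPG libraries. Its RPF stood at 115, 136, 138, 128 and 124 CPM in basal and at 118, 145, 150, 121 and 120 CPM after DHPG. The groups overlapped in both assays, RNA was higher in 3 of 4 pairs (0.04 ± 0.07 SE), and RPF was higher in pairs 1 to 3 and lower in pairs 4 and 5 (0.03 ± 0.04 SE).

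Over all 9 members, the median log2 fold change was 0.0062 in RNA, -0.0029 in RPF and -0.06 in the ratio, beside 0.0068, 0.0031 and -0.0017 over all genes tested. RNA and RPF changes had opposite signs in Pabpc1, Paip1, Paip2, Cpeb2 and Cpeb4, and 42.6% of all genes measured in both assays had opposite signs. The RNA shifts of Cpeb1, Pabpc4, Paip1, Cpeb4 and Cpeb2 were below 0.01 on the log2 scale in either direction.

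**Figure D3:**
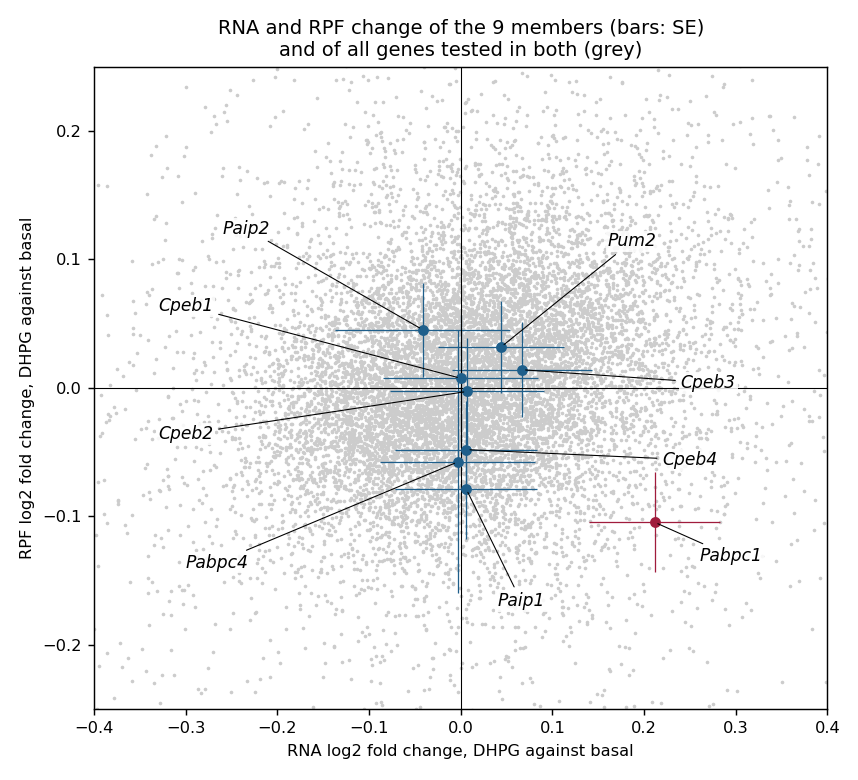
Log2 fold change after DHPG in RNA (horizontal axis) and in RPF (vertical axis), with standard errors as bars, for the 9 members, and for all genes tested in both assays in grey; genes beyond the axis limits are not drawn. Pabpc1, at 0.21 in RNA and -0.10 in RPF, lies apart from the other 8 members, which lie between -0.04 and 0.07 in RNA and between -0.08 and 0.05 in RPF.

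The level and the RPF to RNA ratio were among the values followed for this group, so those at rest are given as a description. With 4 replicates, the exact permutation tests on these ratios below could not reach a p under 0.125. Levels of different genes were compared per kb, of coding sequence without its trimmed ends for RPF and of transcript for RNA. In basal RNA, Pum2 had 75.7 ± 10.99 CPM per kb (SD, n = 4), Pabpc1 66.4 ± 16.9, Paip1 54.9 ± 13.1 and Cpeb4 45.1 ± 14.4, and these neighbours overlapped in their ranges over libraries. Below them came Cpeb1 with 23.8 ± 2.36, Paip2 with 22.5 ± 3.30, Cpeb3 with 14.3 ± 0.941, Pabpc4 with 13.7 ± 0.762 and Cpeb2 with 10.6 ± 1.14, where Cpeb1 overlapped Paip2, and Cpeb3 overlapped Pabpc4. With a longer transcript for Cpeb4 its RNA level was 16.5, and for Cpeb1 13.6, so their rank depends on the transcript.

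In basal RPF the order was another. Paip2 was highest with 423 ± 30.5 CPM per kb (SD, n = 5), followed by Paip1 with 78.1 ± 3.04, Pabpc1 with 51.9 ± 4.87, Cpeb3 with 46.4 ± 2.58, Pum2 with 40.8 ± 3.02, Cpeb4 with 39.3 ± 3.09, Cpeb1 with 23.7 ± 3.13, Cpeb2 with 21.2 ± 0.704 and Pabpc4 with 4.29 ± 0.612. The ranges of Pabpc1, Cpeb3 and Pum2 overlapped between neighbours, as did those of Pum2 and Cpeb4 and those of Cpeb1 and Cpeb2, and Paip2, Paip1 and Pabpc4 overlapped no other member. Pabpc1 exceeded Pabpc4 by 4.83 times in RNA and by 12.1 times in RPF per kb.

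The basal RPF to RNA ratio per length, the RPF level per kb of coding sequence divided by the RNA level per kb of transcript, was taken in the 4 replicates with both basal libraries and is given relative to the median of 12459 genes. The inhibitor Paip2 was at the top of the group with 3.42 on the log2 scale (SD 0.277, n = 4), 10.7 times the median gene and at percentile 97.9. Its relative Paip2b, which is outside the group, was at 4.11 and percentile 99.2. The stimulatory partner Paip1 was at -0.29 (SD 0.309, percentile 42.2), and on the other side of the median with its longest transcript (0.38, percentile 59.8) or without length scaling (percentile 66.3). Paip1 was below Paip2 in 4 of 4 replicates, with a difference of -4.04 to -3.54 on the log2 scale (exact permutation test over replicates, two-sided, p = 0.125, the smallest that 4 replicates allow, 0.141 adjusted over the 9 pairs of genes compared).

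Both poly(A) binding proteins had a low ratio with the transcript of the longest coding sequence. Pabpc1 was at -1.14 (SD 0.222, percentile 20.0) and Pabpc4 at -2.42 (SD 0.138, percentile 2.82). Pabpc1 was above Pabpc4 in 4 of 4 replicates, by 1.28 ± 0.358 (SD, n = 4; exact permutation test, two-sided, p = 0.125, 0.141 adjusted). With its longest annotated transcript, which carries a coding sequence of only 504 nt, Pabpc4 was at -0.42 (percentile 38.6) and the order turned (-0.90). Among transcripts with at least 90% of the longest coding sequence the order was kept (1.17).

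Pum2 also had a low ratio, at -1.69 (SD 0.304, percentile 9.86), with the highest mean RNA level per kb of the group.

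In the CPEB family, Cpeb3 had the highest ratio (0.88, SD 0.138, percentile 72.7), followed by Cpeb2 (0.19, SD 0.169, percentile 55.6), Cpeb1 (-0.84, SD 0.142, percentile 26.9) and Cpeb4 (-0.98, SD 0.550, percentile 23.4). In 4 of 4 replicates Cpeb2 was below Cpeb3 (difference -0.69 ± 0.187, SD), and Cpeb1 was below Cpeb3 (-1.72 ± 0.118; exact permutation tests, two-sided, p = 0.125 each, 0.141 adjusted). Cpeb3 was above Cpeb4 by 1.86 ± 0.542, and Cpeb2 above Cpeb4 by 1.18 ± 0.395, and the difference of Cpeb1 and Cpeb2 was -1.03 ± 0.274, each in 4 of 4 replicates and with the same p. Cpeb1 and Cpeb4 did not differ beyond their spread (0.14 ± 0.649, exact permutation p = 0.75). Transcript choice moved Cpeb1 and Cpeb4: the transcripts with their longest coding sequences, of 1777 and 2312 nt, hold hardly any UTR, and with the longer ones of 3111 and 6303 nt Cpeb1 came to -0.10 (percentile 47.1) and Cpeb4 to 0.43 (percentile 61.6). Cpeb2 and Cpeb4 then differed by -0.22, with Cpeb2 higher in 2 of 4 replicates. Cpeb3 and Cpeb4 differed by 0.38, with Cpeb3 higher in 2 of 4, and Cpeb1 and Cpeb2 by -0.31, with Cpeb1 higher in 1 of 4. Cpeb1 (-0.91) and Cpeb2 (-0.60) were below Cpeb3 in 4 of 4 replicates with these transcripts too. The isoforms expressed in these slices were not resolved by the gene counts.

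**Figure D4:**
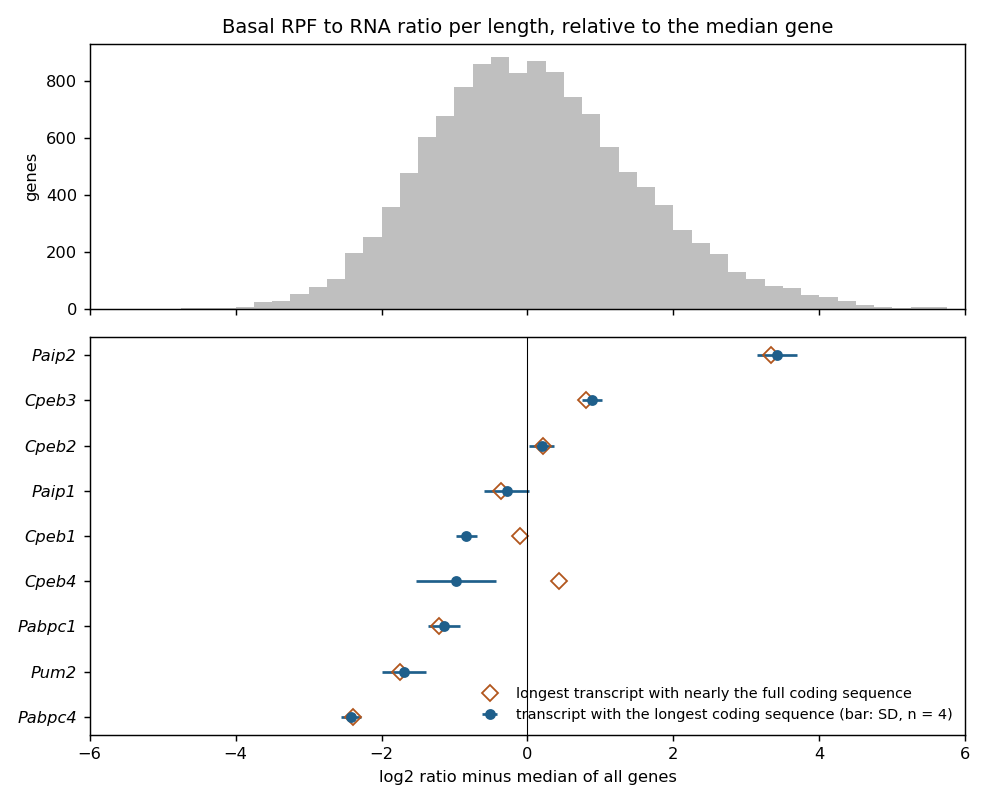
Basal RPF to RNA ratio per length on the log2 scale, less the median of all genes. The upper panel is a histogram of 12459 genes; the lower panel gives the members, with blue points and SD bars (n = 4) for the transcript with the longest coding sequence and brown diamonds for the longest transcript with at least 90% of it. Paip2 lies at 3.42 and Pabpc4 at -2.42, and Cpeb1 and Cpeb4 are the members that shift between the transcripts.

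The 5 genes whose 9 pair differences (4 in RNA, 5 in RPF) were most like those of Pabpc1 were Rnf31 (Pearson r = 0.968), Cggbp1 (0.961), Slain1 (0.930), Ildr2 (0.925) and Agap1 (0.925), among 12690 genes whose 95th percentile of r was 0.666. The points share libraries and the gap between the assays, so r is a description. All 5 had higher RNA in 4 of 4 pairs, with log2 fold changes of 0.17 to 0.29. RPF was lower in 5 of 5 pairs in Cggbp1 (-0.09) and in 4 of 5 in Rnf31 (-0.03) and Agap1 (-0.06), and higher in 4 of 5 in Ildr2 (0.06). None passed the threshold in RNA, RPF or the ratio in edgeR; the smallest adjusted p was 0.35, for the ratio of Slain1 (-0.33 ± 0.08 SE).

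Of the relatives outside the group, Pabpn1, Paip2b, Pabpc5 and Nanos1 were expressed well enough to be tested in both assays, and none of these was called (0 with an unadjusted p under 0.05; smallest adjusted p 0.852 in RNA and 0.764 in RPF). Pabpn1, the nuclear poly(A) binding protein, differed by -0.03 ± 0.09 (SE) in RNA and -0.03 ± 0.05 in RPF. Paip2b differed by -0.11 ± 0.14 and 0.05 ± 0.06, Pabpc5 by -0.23 ± 0.25 and 0.02 ± 0.11, and Nanos1 by 0.11 ± 0.16 and 0.12 ± 0.12. Pabpc1l, Pabpc2, Pabpc4l, Pabpc6, Pabpn1l, Nanos2 and Nanos3 were too low to be tested.

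Of 18 other PABP partners (initiation and release factors, LARP, ataxin-2, TNRC6 and Tob proteins), 15 had lower RPF after DHPG, with a median log2 fold change of -0.04 against 0.0031 over all genes, and 0 were called in edgeR (7 with an unadjusted p under 0.05, all lower). Over all genes, 8.02% in RNA and 10.8% in RPF had an unadjusted p under 0.05. The gene lists were chosen with earlier results of these data known, so the counts in this and the following lists are a description. The median over partners was between -0.09 and -0.0033 in the 5 pairs. In RNA 12 of 18 were higher (median 0.01, 0 called, 1 with an unadjusted p under 0.05). In RPF, Larp1, a TOP mRNA binding protein, was at -0.11 ± 0.04 (SE, lower in 4 of 5 pairs, adjusted p = 0.325). In RNA the smallest p were those of Tob1, an adaptor between PABP and deadenylases (0.30 ± 0.09, higher in 4 of 4, adjusted p = 0.536), and Larp4b (-0.09 ± 0.08, adjusted p = 0.809).

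The 18 TOP mRNAs of translation factors, the class to which Pabpc1 belongs, were lower in RPF in 16 genes (median -0.04 against 0.0031 over all genes, 0 called, 2 with an unadjusted p under 0.05, both lower) and lower in RNA in 9 (median -0.0010, 0 called, 0 with an unadjusted p under 0.05). Npm1 (-0.10 ± 0.03 SE, adjusted p = 0.226) and Eif3e (-0.08 ± 0.04, adjusted p = 0.42) had the smallest p in RPF, and Eif4a2 (-0.12 ± 0.07, adjusted p = 0.653) and Eif3l (-0.12 ± 0.07, adjusted p = 0.686) in RNA.

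The cytoplasmic polyadenylation list, the machinery with which CPEB proteins act, had 11 of 15 tested genes lower in RNA (median -0.08, 0 called, 1 with an unadjusted p under 0.05) and 8 of 15 lower in RPF (median -0.0050, 0 called, 3 with an unadjusted p under 0.05). Eif4enif1, which binds eIF4E in CPEB complexes, was at 0.20 ± 0.08 in RNA (higher in 4 of 4 pairs, adjusted p = 0.558). Aurka, a kinase known to phosphorylate CPEB1, was at -0.57 ± 0.32 in RNA (higher in 2 of 4 pairs, adjusted p = 0.662). In RPF, Cpsf1, a polyadenylation factor, was at 0.11 ± 0.04 (higher in 5 of 5 pairs, adjusted p = 0.335) and Papd7, a poly(A) polymerase, at -0.19 ± 0.08 (lower in 5 of 5, adjusted p = 0.353).

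Among 17 genes of the deadenylases and their partners, 11 were higher in RNA (median 0.04) and 11 lower in RPF (median -0.02), with 0 called and 1 with an unadjusted p under 0.05 in each assay. In RNA, the catalytic subunits Cnot8 (-0.24 ± 0.09 SE, lower in 4 of 4 pairs, adjusted p = 0.545) and Cnot7 (0.17 ± 0.08, higher in 3 of 4, adjusted p = 0.626), which are close paralogs, had the smallest p, with values of opposite sign. In RPF, Btg2, a deadenylase activator and immediate early gene, was at 0.09 ± 0.04 (adjusted p = 0.429) and Ccrn4l (nocturnin) at 0.07 ± 0.04 (adjusted p = 0.494).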

How the data were processed

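RNA-seq and ribosome profiling libraries of 19 samples were analysed. The authors aligned uniquely mapped, deduplicated reads with RSEM, to the whole mm10 transcriptome for RNA and to RefSeq coding sequences without their ends for RPF, and deposited expected counts per gene, as whole numbers. Of the table columns, 12 matched no sample and were not used. Members and gene lists were chosen with earlier results of these data known.

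DHPG was compared with basal by the quasi-likelihood F test of edgeR 4.0.16 in R 4.3.3 (TMM, filterByExpr, replicate number as a block, Benjamini-Hochberg over all genes; calls at 0.01 for RNA and 0.05 for RPF), and the ratio as the interaction of assay and treatment (0.05). Levels are CPM with TMM scaling, and 2 was the prior count of log2 CPM. The study treated replicate numbers as batches, and same-numbered libraries deviated together (r of 0.308 to 0.741 for the RNA pairs, 0.259 to 0.523 for the RPF pairs; in RNA, replicate 2 correlated more with a library of another number, 0.467), so the numbers pair the samples. Whether replicates share animals between treatments is not given in the sources used here. The edgeR p-values measure how far the difference of DHPG and basal varies between replicate numbers, each library being a pool of slices. Basal ratios used lengths from GENCODE (99.5% of genes matched) for the transcript with the longest coding sequence, less 60 nt.

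Genes outside the group were named by a rule: relatives, in each list the genes called (at most 5) or else the 2 with the smallest p per assay, and the 5 most like Pabpc1. Some results that this rule would name are not reported here. The alternatives were DESeq2 1.42.0, sva 3.50.0 (ComBat), limma 3.58.1, other scalings, filters and lengths, no block and each replicate left out. The steps were tested on simulated data.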

Additional observations from a re-analysis of the deposited data

Results flagged for a closer look

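The levels of the 9 members were screened in each of the 36 groups of 4 or 5 libraries for a highest or lowest library with a wide gap to the others (Dixon's criterion), and 5 groups met it, where chance gives about 1.8 (5% of groups). Paip1 RPF was 101 CPM in basal replicate 3, below the other 4 libraries at 109.7 to 112 CPM. Paip2 RNA was 43.1 CPM in basal replicate 4, above the other 3 at 31.9 to 33.7 CPM, and Paip2 RPF was 149 CPM in basal replicate 2, above the other 4 at 124 to 129.6 CPM. Cpeb2 RNA was 60.7 CPM in basal replicate 3, below the other 3 at 75.6 to 77.1 CPM. Cpeb4 RPF was 66.8 CPM in DHPG replicate 1, below the other 4 at 81.5 to 86.2 CPM, and basal replicate 1 was also the lowest of its group. No Pabpc1 group met the criterion.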

How the results depend on the processing

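The Pabpc1 shift kept its direction under every alternative run: RNA between 0.15 and 0.25 over 11 alternatives, RPF between -0.13 and -0.08 over 11, and the ratio between -0.36 and -0.28 over 9. Pabpc1 was chosen by this shift, and nearly all its pairs share the direction. Leaving out 1 replicate therefore had no room to turn it, and the kept direction is no support for the shift. Of 248 fold changes of the other members under alternatives, all stayed within 1 SD over pairs, and 46 changed sign. Leaving out 1 pair cannot move a mean over the same pairs by 1 SD, so this measure had little room to fail there. The counts of genes called moved more. In RNA (1 gene) they were 7 without the filter, 0 with at least 10 counts in every library, 0 in DESeq2 with the block, 99 after ComBat and 0 to 22 with 1 replicate left out (22 without replicate 2). In RPF (29 genes) they were 96 without the filter, 421 after ComBat, 8 at an adjusted p of 0.01 and 3 to 71 with 1 replicate left out (3 without replicate 2, 71 without replicate 3). For the ratio (0 genes) they were 3 without the filter and 0 to 8 with 1 replicate left out. Without the replicate block, 0 RNAs and 0 RPFs were called, and the block changed no call of the ratio (0 in either fit). The basal ratio of Pabpc1, -0.32 on the log2 scale before the median of all genes is taken off, was -0.93 without length scaling and -0.68 in the DHPG libraries. On that scale the sign turned for Pabpc4 (0.58), Cpeb1 (0.79) and Cpeb4 (1.32) with the longest transcript, for Cpeb1 (0.79) and Cpeb4 (1.32) with the longest transcript holding at least 90% of the longest coding sequence, an alternative chosen after seeing the data, and for Cpeb2 without length scaling (-0.17). With 1 replicate left out, the sign also turned for Cpeb1 (up to 0.03) and Cpeb4 (up to 0.02). Relative to the median gene, Paip1 turned from -0.29 to 0.38 with the longest transcript. The shorter annotated UTRs or coding sequence account for the length cases by construction; the cause of the others was not tested.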
